A study of Mus musculus with 22 samples.

Results

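A set of 10 genes of inflammatory cell death was followed through 4 count tables of mouse fetal liver: Zbp1, Ripk1, Ripk3, Mlkl, Casp1, Casp4, Casp8, Gsdmd, Nlrp3 and Pycard. They were taken by gene name, 10 of the 52459 genes in the gene tables, and each of the 10 has a row in all 4 tables. The KO embryos were Vav-Cre Mettl3fl/fl and the WT embryos carried Mettl3fl/fl without Vav-Cre, all at day E14.5. Mettl3 encodes the methyltransferase that deposits N6-methyladenosine in RNA. The Vav promoter drives Cre in blood cells, so hepatocytes and other liver cells of KO embryos are not its target, and floxed alleles without Cre are what the WT embryos share with them. LSK cells, sorted as Lin-Sca-1+c-Kit+ and holding blood stem and multipotent progenitor cells, were the source of 3 KO and 3 WT bulk RNA libraries, 2 and 2 single-cell libraries, and 2 and 2 libraries of CUT&RUN, an antibody-guided cleavage of chromatin, against H3K4me3. From unsorted fetal liver came RNA bound by J2, an antibody to double-stranded RNA, and total RNA called INPUT (2 KO and 2 WT libraries of each). The labels call the libraries of a group biological replicates.

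Necroptosis is a lytic death in which RIPK3 phosphorylates MLKL, and MLKL then breaks the plasma membrane. RIPK3 is engaged through RIPK1, downstream of death receptors and Toll-like receptors, or through ZBP1, a sensor of left-handed (Z-form) double-stranded RNA and DNA that is induced by interferon; caspase-8 cleaves RIPK1 and RIPK3 and holds the pathway back. Pyroptosis is the lytic death that follows cleavage of gasdermin D (Gsdmd), either by caspase-1, which is activated in inflammasomes built from NLRP3 and the adaptor ASC (Pycard), or by the product of mouse Casp4, also called caspase-11, which binds bacterial lipopolysaccharide.

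The sequence around the starts of 2 of these genes is shown because of the 10 genes Ripk1 had the smallest adjusted p between KO and WT in bulk RNA and Casp4 in H3K4me3. RefSeq promoter sequences of build GRCm38.p6, from 250 bases before to 50 after a gene start, were found for 8 of the 10 genes, in 11 entries; Zbp1 and Gsdmd were not in the table. They were searched on both strands for an IRF element (GAAANNGAAA, the core of the site through which interferon acts) and for a GAS element (TTCNNNGAA, bound by STAT dimers), which can overlap. The Ripk1 sequence lies on the plus strand at chr13:34002624-34002923 and the Casp4 sequence on the plus strand at chr9:5308599-5308898. Capitals mark the matches.
Ripk1: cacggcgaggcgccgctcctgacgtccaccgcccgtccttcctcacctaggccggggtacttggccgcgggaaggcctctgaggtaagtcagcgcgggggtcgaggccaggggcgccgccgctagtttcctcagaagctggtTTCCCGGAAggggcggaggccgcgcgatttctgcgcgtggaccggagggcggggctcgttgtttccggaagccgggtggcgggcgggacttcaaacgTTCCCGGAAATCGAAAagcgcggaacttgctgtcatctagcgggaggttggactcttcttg
Casp4: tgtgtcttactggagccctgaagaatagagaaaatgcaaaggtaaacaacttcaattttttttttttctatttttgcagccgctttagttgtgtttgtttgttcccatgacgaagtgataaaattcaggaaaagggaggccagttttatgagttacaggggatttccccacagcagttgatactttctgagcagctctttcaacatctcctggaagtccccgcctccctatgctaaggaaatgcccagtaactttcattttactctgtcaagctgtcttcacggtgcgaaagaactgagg
Of the 8 genes, 1 held each motif, and it was the same gene. Ripk1 had 1 IRF match and 2 GAS matches, with the second GAS match, first base 11 before the start, running into the IRF match at 5 before the start. The other Ripk1 entry, at chr13:34002113-34002412, held neither motif. Of all 32851 promoter entries, 3.44% held an IRF match and 8.3% a GAS match. By gene the shares were 3.99% and 9.55% of 27025 genes. The windows of Casp4, Mlkl, Casp8, Pycard, Ripk3, Casp1 and Nlrp3 held neither string of letters. A match of letters is a description of the sequence and does not show that a factor binds there.

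Bulk libraries held 20088100 to 40641081 counts, the H3K4me3 windows 11508783 to 14451575 counts, the liver libraries 3100910 to 5251496 counts and the kept single cells of a library 7264127 to 11638238 counts. Mettl3 checked the labels of the bulk libraries, with 5.32 ± 1.10 CPM in KO and 39.7 ± 5.67 CPM in WT (SD, n = 3 each; CPM is a count as a share of the library's total, times 1e6, here after TMM normalization). In INPUT it had 6.70 and 26.9 CPM in the libraries labelled KO and 29.4 and 24.9 CPM in those labelled WT. In the single-cell sums it was 64.3 and 52.2 CPM in the libraries labelled KO and 36.3 and 33.3 CPM in those labelled WT. In the J2 libraries it was 46.2 and 34.6 CPM in those labelled KO and 25.5 and 30.2 CPM in those labelled WT. Mettl3 thus lay higher under the KO label in the J2 and single-cell libraries, and INPUT KO 2 lay between the INPUT WT libraries. Where the counted reads lie relative to the deleted part was not tested, nor was the part of liver cells that Vav-Cre does not target. For liver and single cells KO and WT below stand for the labels. Both single-cell libraries labelled KO had Xist and no Y-linked transcript, and both labelled WT had Y-linked transcripts and no Xist, and in that assay the sex of the embryos and their genotype cannot be told apart. Kit was present in all bulk libraries (347 to 372 CPM in KO and 489 to 568 CPM in WT), as was Ly6a, the gene of Sca-1 (12.7 to 24.4 CPM in KO and 4.93 to 7.67 CPM in WT). Granulocyte marker genes, 8 listed, summed to 3785 to 3853 CPM in bulk KO and 1558 to 1706 CPM in WT, lymphoid markers to 90.2 to 100.5 CPM in KO and 205.1 to 296.5 CPM in WT, and MHC class II and dendritic markers to 26.6 to 30.6 CPM in KO and 78.8 to 166 CPM in WT. In bulk samples a change in the mix of cells and a change of RNA per cell cannot be told apart, and the part of this mix in the results below was not tested.

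In bulk LSK RNA, 6 of the 10 genes rose in KO (Zbp1, Ripk1, Mlkl, Casp4, Casp8 and Pycard) and 1 fell (Nlrp3), by edgeR's quasi-likelihood F test with Benjamini-Hochberg adjustment over all genes, called at an adjusted p under 0.05. Of the 14405 genes tested, 21.6% rose and 22.6% fell. The genes that rose include a sensor, a kinase and the executioner of necroptosis, the caspase that holds it back, and caspase-11 and ASC on the side of pyroptosis. The median log2 fold change of the 10 was 0.39, against -0.02 over all genes tested. The 10 genes were chosen with earlier results of these data known, so counts and medians of the set, here and below, are a description. In 7 of the 10 every KO library was above every WT library, a pattern found in 26.8% of all genes tested.

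**Figure D1:**
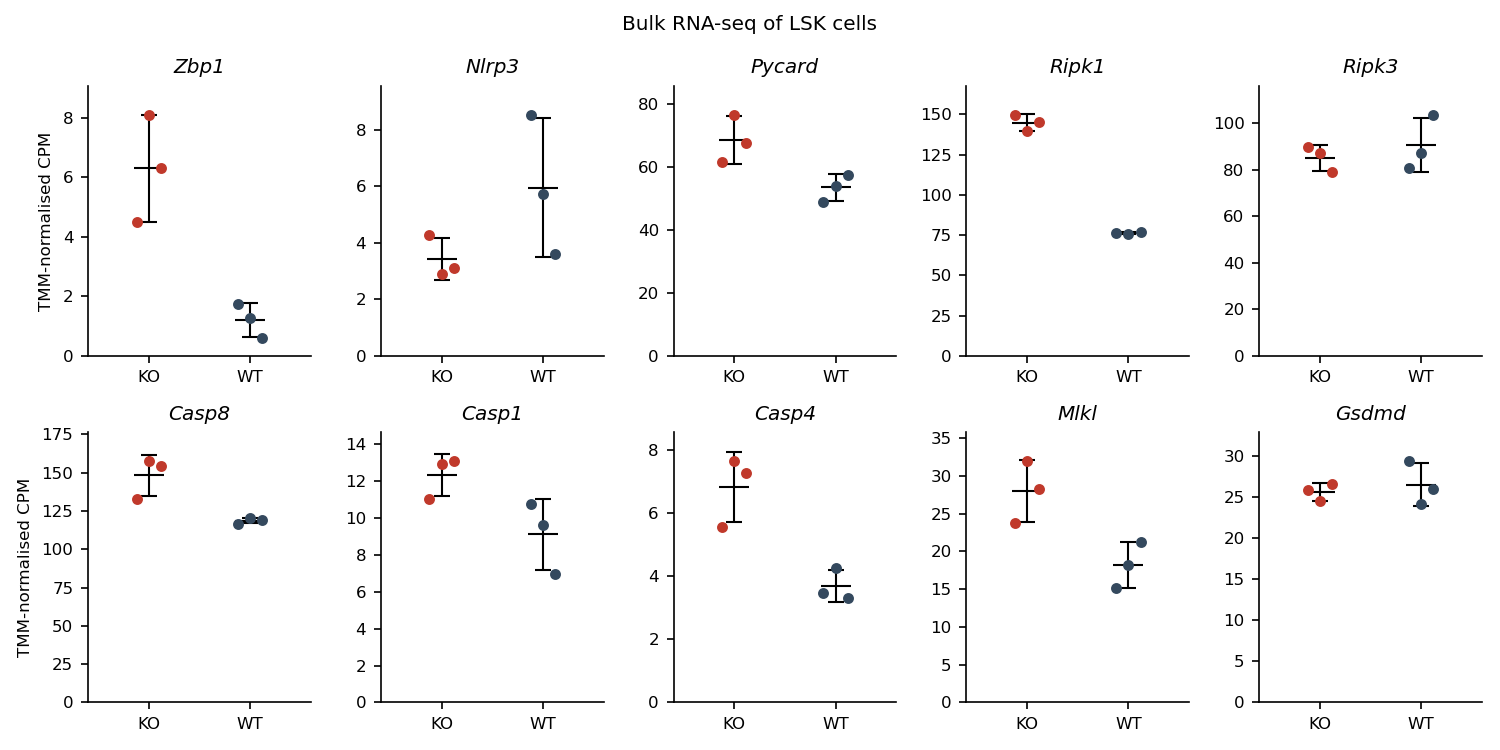
Levels of the 10 genes in bulk LSK RNA, in TMM-normalised CPM, with one point per library, a horizontal line for the mean and bars for the SD (n = 3 KO and 3 WT). The KO points lie above the WT points for Zbp1, Pycard, Ripk1, Casp8, Casp1, Casp4 and Mlkl, and the groups overlap for Nlrp3, Ripk3 and Gsdmd.

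Among the sensors, Zbp1 had 179, 217 and 202 reads (4.51, 8.10 and 6.31 CPM) in KO libraries 1 to 3, against 55, 47 and 12 reads (1.73, 1.27 and 0.594 CPM) in WT libraries 1 to 3. The groups did not overlap, and the lowest KO library was above the highest WT library by more than the spread within WT. The log2 fold change was 2.34 (SE 0.34, edgeR adjusted p = 0.000631), the largest of the 10. Leaving out any 1 library kept it between 2.10 and 2.65.

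Nlrp3, the sensor of the canonical inflammasome, had 4.29, 2.91 and 3.09 CPM in KO and 8.52, 5.71 and 3.61 CPM in WT. The groups overlapped, since the lowest WT library lay below the highest KO library. Its log2 fold change was -0.80 (SE 0.29, edgeR adjusted p = 0.0494). The call was lost with RLE size factors (edgeR adjusted p = 0.0535) and without KO 1, KO 2, KO 3, WT 1 or WT 2, where the log2 fold change was between -0.96 and -0.46 and the edgeR adjusted p between 0.0671 and 0.179. Macrophage markers, 12 listed, summed to 25.6 to 26.7 CPM in KO and 27.8 to 62.4 CPM in WT, and their part in the Nlrp3 difference was not tested.

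The adaptor Pycard rose, with 61.6, 76.4 and 67.4 CPM in KO and 49.0, 53.8 and 57.5 CPM in WT. Its log2 fold change was 0.36 (SE 0.10, edgeR adjusted p = 0.0151). The KO libraries were all higher, although KO 1 and WT 3 were close.

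Of the kinases, Ripk1 showed the tightest difference. Its levels were 149.7, 139.5 and 145.5 CPM in KO and 76.4, 75.7 and 77.2 CPM in WT, a log2 fold change of 0.92 (SE 0.06, edgeR adjusted p = 2.77e-05). Within each group the libraries differed by far less than the groups did. Ripk3, the kinase that acts next, had 89.7, 87.1 and 79.0 CPM in KO and 80.9, 87.4 and 103.6 CPM in WT, with overlapping groups and a log2 fold change of -0.09 (SE 0.10, edgeR adjusted p = 0.506).

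Mlkl had 23.8, 31.9 and 28.3 CPM in KO and 15.2, 18.1 and 21.2 CPM in WT, and rose with a log2 fold change of 0.62 (SE 0.15, edgeR adjusted p = 0.00758). The other executioner, Gsdmd, gave no call, with 25.9, 24.5 and 26.6 CPM in KO and 29.4, 24.2 and 26.0 CPM in WT (log2 fold change -0.05, SE 0.10, edgeR adjusted p = 0.715). Its 6 libraries overlapped fully.

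Of the caspases, Casp4 had 5.57, 7.65 and 7.27 CPM in KO and 3.49, 4.26 and 3.32 CPM in WT (log2 fold change 0.88, SE 0.17, edgeR adjusted p = 0.00335). Casp8 had 132.7, 157.3 and 154.6 CPM in KO and 116.6, 120.2 and 119.1 CPM in WT, a smaller rise of 0.32 on the log2 scale (SE 0.08, edgeR adjusted p = 0.00901). For both genes each KO library was above each WT library. Casp1 had 11.04, 12.95 and 13.08 CPM in KO and 10.75, 9.65 and 6.98 CPM in WT, with KO 1 only just above WT 1. Its log2 fold change of 0.43 (SE 0.16) did not pass the test (edgeR adjusted p = 0.0568). It passed without a filter on low counts (edgeR adjusted p = 0.0254), with DESeq2 (adjusted p = 0.0377), with the replicate number as a block (edgeR adjusted p = 0.0338) and without WT 1 (edgeR adjusted p = 0.0171).

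By the rule for naming like genes, the genes with the most similar profile over the 6 bulk libraries (Pearson correlation of log2 CPM) were Aurka, Ckap2 and Dtl for Zbp1 (0.996 to 0.997), Parp10, Plaa and Bace1 for Ripk1 (0.999 or above) and Znrd1as, Llph-ps2 and Bfar for Casp4 (0.995 to 0.998). With 6 libraries in 2 groups, any gene that separates KO from WT scores high, and these values are a description.

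Around the 10 genes, 40 genes of initiation and control of cell death and 42 other inflammasome and pyroptosis genes were listed. Of 39 tested genes of the first list, 13 rose and 4 fell in bulk KO RNA (median log2 fold change 0.02), and of 33 tested genes of the second list, 9 rose and 10 fell (median -0.03), against the same 21.6% and 22.6% of all genes. Among the genes that rose, Fas, a death receptor, averaged 0.724 ± 0.078 CPM in KO and 0.282 ± 0.026 CPM in WT (SD, n = 3 each), a log2 fold change of 1.36 (SE 0.32, edgeR adjusted p = 0.00747). Tradd, an adaptor of the TNF receptor, averaged 27.7 ± 1.81 CPM in KO and 15.7 ± 0.95 CPM in WT (log2 fold change 0.82, edgeR adjusted p = 0.000223). Birc3, a ubiquitin ligase that acts on RIPK1, averaged 43.9 ± 0.43 CPM in KO and 28.7 ± 1.79 CPM in WT (0.62, edgeR adjusted p = 0.000348). All 3 genes sit upstream of or at RIPK1.

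Of the 4 genes of control that fell, the 3 with the largest change were Tlr3, a sensor of double-stranded RNA (log2 fold change -0.89, edgeR adjusted p = 0.0288), Xiap, an inhibitor of caspases (-0.48, edgeR adjusted p = 0.000664), and Traf2, an adaptor of the TNF receptor (-0.25, edgeR adjusted p = 0.0466). On the inflammasome side the largest rises were in Mefv, the gene of pyrin, Nlrp12 and Serpinb1a, an inhibitor of neutrophil proteases. Mefv averaged 1.51 ± 0.44 CPM in KO and 0.277 ± 0.076 CPM in WT (log2 fold change 2.37, edgeR adjusted p = 0.000851), and Nlrp12 0.551 ± 0.070 CPM in KO and 0.132 ± 0.135 CPM in WT (1.85, edgeR adjusted p = 0.0303). Serpinb1a averaged 218.5 ± 28.5 CPM in KO and 101.2 ± 14.02 CPM in WT (1.11, edgeR adjusted p = 0.000165). All 3 moved with the granulocyte markers given above, and the part of the cell mix in these differences was not tested. The largest falls were in the NOD-like receptor genes Nlrp1b (-1.34, edgeR adjusted p = 0.00515), Nod2 (-1.12, edgeR adjusted p = 0.0113) and Nlrp10 (-1.08, edgeR adjusted p = 0.000865).

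H3K4me3 marks active gene starts, and its reads were counted over 3 kb around transcript starts. Casp4 and Zbp1 had more of it in KO. The strongest window of each gene was tested, and 2 of the 10 genes rose and 0 fell, against 3.23% of 51038 windows that rose and 4.66% that fell. These shares differed with the strength of the window. Among windows of 4 to 5 mean log2 CPM, where Casp4 lies, 526 of 3606 rose and 54 fell. Among those of 2 to 3, where Zbp1 lies, 254 of 4520 rose and 417 fell. Casp4, at 5308849 on chromosome 9, had 348 and 415 reads (28.4 and 30.2 CPM) in KO and 230 and 194 reads (15.9 and 14.3 CPM) in WT. That is the window in which the Casp4 sequence printed above lies. The KO libraries were about as close to each other as the WT libraries were, and the log2 fold change was 0.96 (SE 0.17, edgeR adjusted p = 6.11e-06). It remained between 0.89 and 1.05 without any 1 library. Transcript starts of Casp4 deeper in the gene, at 5321399 and 5323348, held 12 to 26 reads in each library and were not called (edgeR adjusted p = 0.283 and 0.445).

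Zbp1 had a weak mark, with 106 and 108 reads (8.66 and 7.86 CPM) in KO and 81 and 72 reads (5.60 and 5.32 CPM) in WT at 173218923 on chromosome 2. Its log2 fold change was 0.59 (SE 0.20, edgeR adjusted p = 0.0419). The call was lost with library size alone (log2 fold change 0.35, edgeR adjusted p = 0.311), with DESeq2 (adjusted p = 0.137), with all distinct windows in 1 fit (edgeR adjusted p = 0.162) and without KO 1 (edgeR adjusted p = 0.354), WT 1 (edgeR adjusted p = 0.0796) or WT 2 (edgeR adjusted p = 0.278).

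The other 8 genes had log2 fold changes of 0.15 to 0.43 and were not called. Ripk1, whose RNA differed so sharply, had 66.9 and 66.4 CPM of H3K4me3 in KO and 59.1 and 49.8 CPM in WT at its strongest start. The log2 fold change was 0.29 (SE 0.22, edgeR adjusted p = 0.333). This start, 34002874 on chromosome 13, is the gene start inside the Ripk1 sequence printed above, which runs from 34002624 to 34002923. A second Ripk1 start at 34009698 had 146 and 192 reads in KO and 108 and 116 reads in WT, and was called in the fit of all distinct windows (log2 fold change 0.56, SE 0.19, edgeR adjusted p = 0.035). Mlkl had 47.6 and 45.9 CPM in KO and 38.4 and 32.2 CPM in WT (0.40, edgeR adjusted p = 0.154), and Gsdmd, whose RNA gave no call, had 39.7 and 41.5 CPM in KO and 34.8 and 25.7 CPM in WT (0.43, edgeR adjusted p = 0.116). Gsdmd was called in the fit of all distinct windows (0.30, edgeR adjusted p = 0.0493), with the replicate number as a block (0.44, edgeR adjusted p = 0.000804) and without WT 1 (0.68, edgeR adjusted p = 0.0178).

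The kinase gene Ripk3 had 37.6 and 35.5 CPM in KO and 30.9 and 26.0 CPM in WT (0.36, edgeR adjusted p = 0.17). Casp8 had 69.4 and 63.9 CPM in KO and 61.5 and 44.8 CPM in WT (0.33, edgeR adjusted p = 0.285), and Casp1 14.6 and 16.2 CPM in KO and 13.5 and 12.1 CPM in WT (0.26, edgeR adjusted p = 0.269). For all 3 genes WT 2 was the lowest library. Pycard had 53.5 and 50.0 CPM in KO and 49.3 and 44.0 CPM in WT (0.15, edgeR adjusted p = 0.582). Nlrp3 had 18.8 and 20.4 CPM in KO and 16.0 and 18.6 CPM in WT (0.18, edgeR adjusted p = 0.407).

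In all 10 genes both KO libraries were above both WT libraries, a pattern found in 27.4% of the windows tested, and the median log2 fold change of the 10 was 0.34. This direction depends on the scaling. The median over all windows was -0.15 with TMM and -0.40 with library size alone, and strong windows as a whole lay higher in KO: the median was 0.31 in windows of 5 to 6 mean log2 CPM, 0.26 in those of 4 to 5, and -0.11 in those of 2 to 3. Of the 10 genes, 8 are in windows whose mean log2 CPM is 4 or more. When such marked windows were normalized among themselves, the median of those 8 genes was 0.04, Ripk1, Nlrp3 and Pycard were below 0, and Casp4 was the only 1 of the 8 still called, against 2.1% of 15960 marked windows that rose. With library size alone Nlrp3 and Pycard were below 0 as well.

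**Figure D2:**
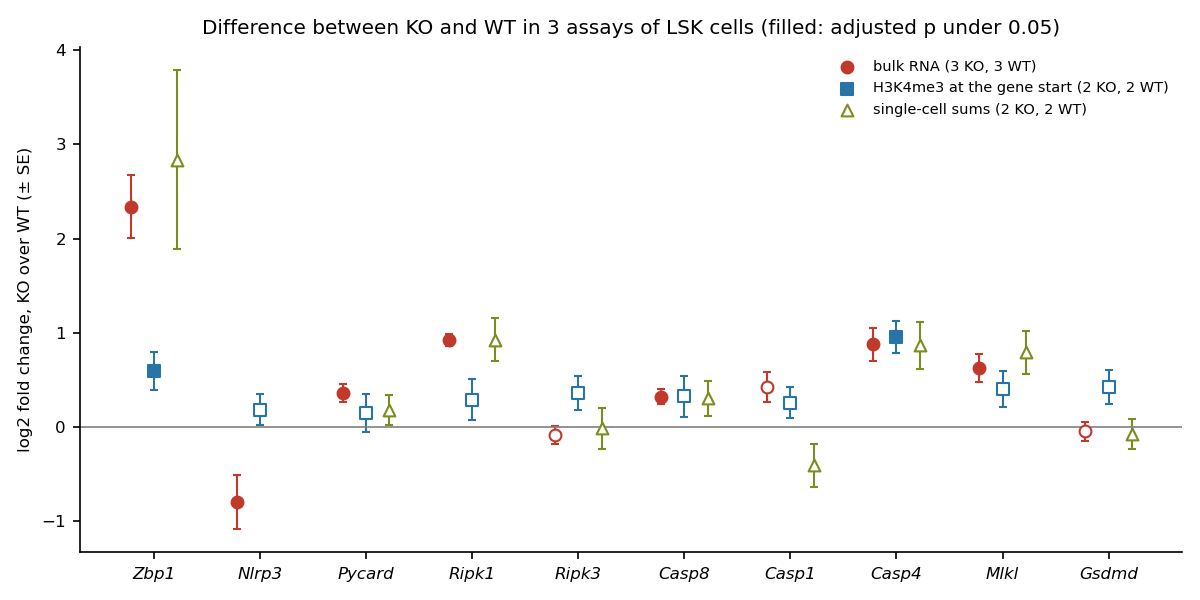
Log2 fold change of KO over WT, with its SE, for the 10 genes in bulk RNA (circles, 3 KO and 3 WT libraries), H3K4me3 at the strongest gene start (squares, 2 and 2) and single-cell sums (triangles, 2 and 2), with filled symbols for an adjusted p under 0.05. Casp4 lies near 0.9 in all 3 assays, Ripk1 near 0.9 in both RNA assays and at 0.29 in H3K4me3, and Casp1 lies on opposite sides of 0 in the RNA assays; Nlrp3 was not tested in single-cell sums.

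In the second RNA assay of LSK cells, counts were summed over the 4920 and 3884 kept cells of the libraries labelled KO and the 2731 and 4143 of those labelled WT, 15678 of 15707 deposited cells in all, of which 8 barcodes occur in more than 1 library. None of the 9 genes tested was called by edgeR, at a background of 0.00748% called of 13374 genes, that is 1 gene; 1932 genes had an unadjusted p under 0.05, and DESeq2 called 310. Every KO library was above every WT library for 5 of the 10 genes (Zbp1, Ripk1, Mlkl, Casp4 and Casp8), against 25% of the genes tested, and the same 5 were among the 6 that rose in bulk RNA.

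Zbp1 summed to 76 and 66 counts (8.08 and 5.46 CPM) in the libraries labelled KO and to 0 and 15 counts (0 and 1.74 CPM) in those labelled WT. In each of the 4 libraries no gene is listed in 1 to 9 cells, so a 0 means fewer than 10 cells with a count, and the value of WT 1 does not show an absence. With 9 counts in its place, a setting chosen after seeing the data, the log2 fold change was 2.12 (SE 0.37, edgeR adjusted p = 0.232), against 2.84 (SE 0.95, edgeR adjusted p = 0.293) with 0. Ripk1 had 43.4 and 37.1 CPM in KO and 17.4 and 24.8 CPM in WT (log2 fold change 0.93, SE 0.23, edgeR adjusted p = 0.269). Both KO libraries were well above both WT libraries, and the size was close to the 0.92 of bulk RNA.

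Mlkl had 10.6 and 13.6 CPM in KO and 6.57 and 7.42 CPM in WT (0.79, SE 0.23, edgeR adjusted p = 0.275), and Casp4 10.2 and 12.3 CPM in KO and 5.25 and 7.07 CPM in WT (0.86, SE 0.25, edgeR adjusted p = 0.275). Casp8 differed little, with 48.4 and 59.2 CPM in KO and 39.0 and 48.2 CPM in WT (0.30, SE 0.19). Pycard overlapped, with 324.7 and 351.4 CPM in KO and 267.1 and 330.0 CPM in WT (0.18, SE 0.16). Ripk3 and Gsdmd were at -0.01 (SE 0.22) and -0.07 (SE 0.16), as near to 0 as in bulk RNA. Nlrp3 had 11 counts in KO 2 and 11 in WT 2 and was listed at 0 in KO 1 and WT 1, and was not tested.

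Casp1 went the other way from bulk RNA. It had 13.5 and 9.68 CPM in the libraries labelled KO and 15.9 and 14.8 CPM in those labelled WT, a log2 fold change of -0.41 (SE 0.23, edgeR adjusted p = 0.475). Monocyte markers, 9 listed, moved with it, with a summed level of 127.8 to 228.1 CPM in KO and 288.5 to 349.1 CPM in WT, while in bulk RNA they were 482 to 559 CPM in KO and 456 to 692 CPM in WT. Their part in the Casp1 difference was not tested.

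Cells were then grouped by markers, a cell joining a class when it had counts of at least 2 of its markers. Classes overlap: 2986 cells were in more than 1 class and 6642 in none. In 5 classes with at least 50 cells in each library (HSC, erythroid, megakaryocyte, granulocyte and monocyte markers), counts were summed per class and library and given as CPM of the class total, with no test. Ripk1 was higher in both KO libraries than in both WT libraries in 5 of 5 classes. The share of all genes with such an order within a class was not computed, for this gene or those below. In cells with HSC markers it had 55.6 and 42.9 CPM in KO and 20.8 and 30.4 CPM in WT, and in cells with granulocyte markers 43.3 and 45.4 CPM in KO and 16.3 and 26.3 CPM in WT. In monocyte-marker cells it had 46.0 and 46.5 CPM in KO and 8.40 and 35.7 CPM in WT. The number of cells in a class also differed, with 2184 and 1214 granulocyte-marker cells in KO and 583 and 703 in WT.

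Zbp1 and Casp4 were above WT in both KO libraries in 4 of 5 classes, Mlkl and Casp8 in 3 and Pycard in 2. The classes share cells, and some of these orders rest on few counts. In megakaryocyte-marker cells Casp4 had 15 counts and Mlkl 19 in all 4 libraries. In monocyte-marker cells Zbp1 had 16.8 and 11.1 CPM in KO and 0 and 2.49 CPM in WT, on 37 counts in all 4 libraries. Casp4 had 13.1 and 16.9 CPM in KO and 11.8 and 8.68 CPM in WT in HSC-marker cells, and 10.2 and 9.78 CPM in KO and 3.36 and 7.17 CPM in WT in granulocyte-marker cells. Casp1 was lower in both KO libraries in 2 of 5 classes: in monocyte-marker cells it had 27.4 and 16.96 CPM in KO and 34.4 and 37.4 CPM in WT, and in granulocyte-marker cells 16.6 and 11.4 CPM in KO and 23.0 and 19.1 CPM in WT. In the other 3 classes the libraries overlapped. Gsdmd was lower in KO in monocyte-marker cells (30.9 and 28.8 CPM in KO, 39.7 and 39.0 CPM in WT) and higher in erythroid-marker cells (22.7 and 29.2 CPM in KO, 18.3 and 21.6 CPM in WT).

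**Figure D3:**
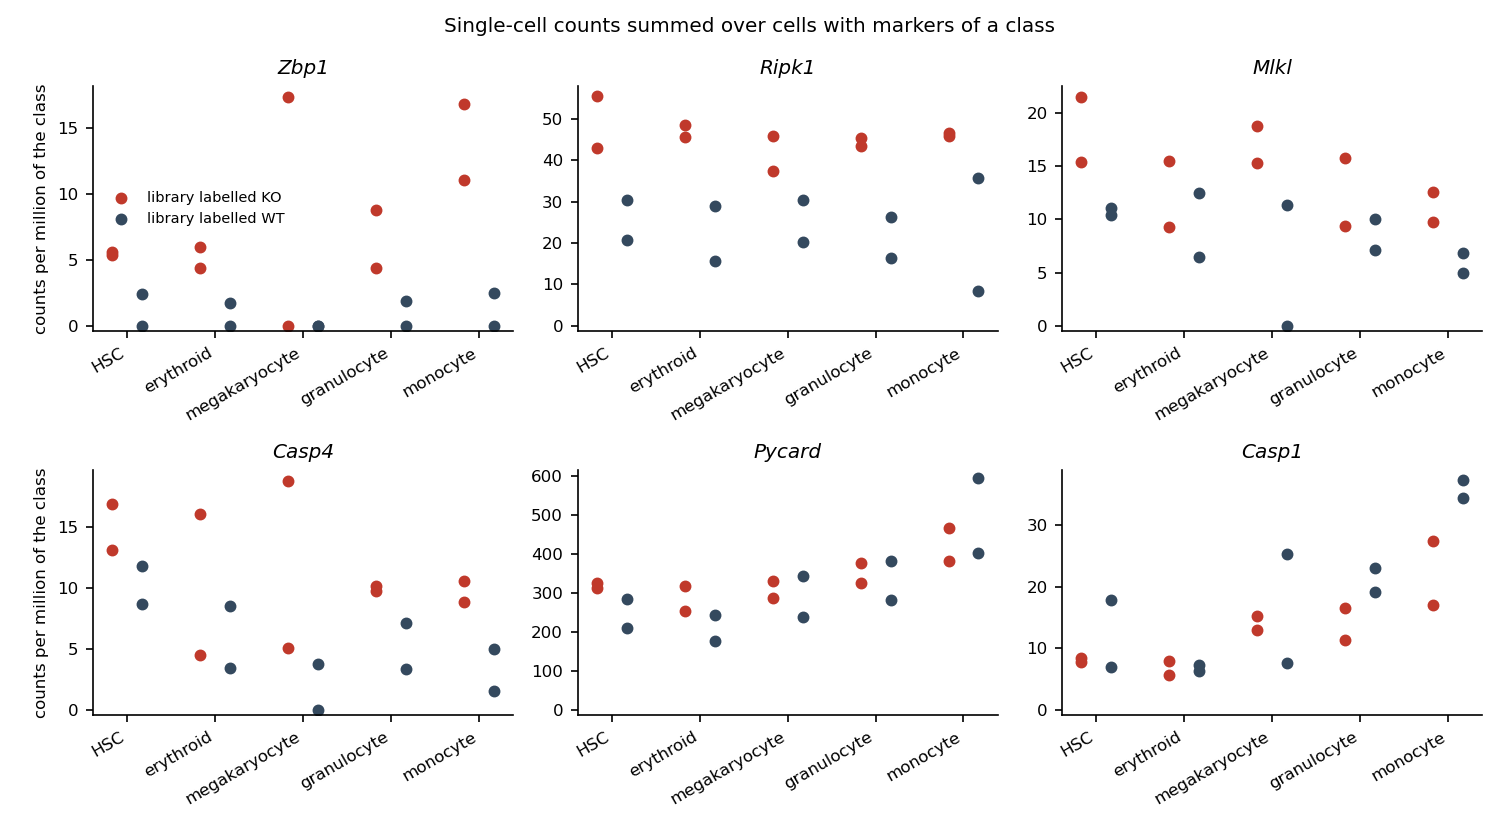
Single-cell counts of 6 genes summed over cells with markers of a class, in CPM of the class total, with one point per library (2 labelled KO, 2 labelled WT). Both KO points of Ripk1 lie above both WT points in 5 of 5 classes, and Casp1 and Pycard are highest in monocyte-marker cells.

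The genes were not spread evenly over classes. Within each of the 4 libraries Casp1 and Pycard were higher in monocyte-marker cells than in erythroid-marker cells: Casp1 had 27.4 and 16.96 CPM in KO and 34.4 and 37.4 CPM in WT in monocyte-marker cells, against 5.59 and 7.88 CPM in KO and 7.23 and 6.24 CPM in WT in erythroid-marker cells. Over all libraries a count of Pycard was found in 70.2% of 1373 monocyte-marker cells (exact binomial 95% interval 67.7 to 72.6%) and in 46.9% of 3015 erythroid-marker cells (45.1 to 48.7%), at median depths of 2727 and 2565 counts per cell. After each cell was thinned to 1000 counts the shares were 38.7% and 21.5%. A count of Casp1 was found in 8.96% of monocyte-marker cells (7.50 to 10.6%) and 2.19% of erythroid-marker cells (1.70 to 2.78%), or 3.22% and 0.754% after thinning. Nlrp3 was seen in 21 cells of KO 2 and WT 2, 12 of them with monocyte markers. It was not confined to that class: it had 15 counts in granulocyte-marker cells and 13 in monocyte-marker cells, and classes share cells.

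Mlkl and Casp4 had another distribution. In each of the 4 libraries both were higher in HSC-marker cells than in monocyte-marker cells. Mlkl had 15.4 and 21.5 CPM in KO and 10.4 and 11.1 CPM in WT in HSC-marker cells, against 9.72 and 12.5 CPM in KO and 6.87 and 4.98 CPM in WT in monocyte-marker cells. Casp4 in monocyte-marker cells had 10.6 and 8.85 CPM in KO and 1.53 and 4.98 CPM in WT, on 32 counts in all. HSC-marker cells were not the highest class in each library. Casp4 had 18.75 CPM in megakaryocyte-marker cells of KO 2, and Mlkl 12.49 CPM in erythroid-marker cells of WT 2. The intervals on shares of cells cover counting error only, and no class is known to lack these genes, so the share that free RNA gives was not measured.

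The lists of other genes gave fewer calls in the other LSK assays. In H3K4me3, 1 of 40 genes of initiation and control rose (Adar, an RNA editing enzyme, named after its value was seen) and 0 fell. Of 42 inflammasome and pyroptosis genes 7 rose and 1 fell. Over all windows 3.23% rose and 4.66% fell, shares that differed with the strength of the window, as given above. Of the genes followed from bulk RNA, Mefv had a log2 fold change of 0.86 (edgeR adjusted p = 7.01e-05) and Nlrp12 of 0.75 (edgeR adjusted p = 0.00361), and Nlrp10 fell by 0.76 on the log2 scale (edgeR adjusted p = 0.0255). The other 9 were not called, among them Nod2, with 0.22 in H3K4me3 (edgeR adjusted p = 0.342) and -1.12 in bulk RNA. The lowest adjusted p of the list was that of Il18bp, the gene of a protein that binds interleukin-18, with a log2 fold change of 1.46 in H3K4me3 (edgeR adjusted p = 1.05e-13) and of 0.33 in bulk RNA, which was not called (edgeR adjusted p = 0.306). Of the other 4 genes that rose in H3K4me3, Ninj1 also rose in bulk RNA (1.09, edgeR adjusted p = 0.000168), Pstpip1 and Gsdme were not called there (-0.02 and 0.29, edgeR adjusted p = 0.886 and 0.187) and Il1rn was not tested there. These 5 genes too were named after their values were seen. In the single-cell sums 0 of 37 and 0 of 25 tested genes were called by edgeR, against the 0.00748% of all genes.

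In whole liver the genes were sparse. Ripk1 and Casp8 were the only 2 of the 10 with at least 50 reads in each of the 8 libraries. In INPUT 8 of the 10 genes passed the filter on low counts and 0 were called in KO against WT, at a background of 1.18% of 14657 genes. Every KO library was above every WT library for 4 of the 10 (Zbp1, Ripk1, Ripk3 and Mlkl), against 22.1% of the genes tested. Zbp1 did not pass the filter and is not among the genes tested. Ripk1 had 41.4 and 58.1 CPM in KO and 35.2 and 34.3 CPM in WT (log2 fold change 0.52, SE 0.37, edgeR adjusted p = 0.504). Casp8 had 33.2 and 26.3 CPM in KO and 25.9 and 34.3 CPM in WT (-0.01, SE 0.40, edgeR adjusted p = 1). Mlkl had 8 and 60 reads in KO and 4 and 1 in WT (3.32, SE 1.35, edgeR adjusted p = 0.242), a value that falls to 0.98 without KO 2. Ripk3 had 28 and 69 reads in KO and 14 and 4 in WT (1.98, SE 1.21, edgeR adjusted p = 0.428), or 0.96 without KO 2. KO 2 is the INPUT library whose Mettl3 level lay between those of the WT libraries. The other members were read unevenly within a group: Pycard had 71 and 9 reads in INPUT KO and 9 and 21 in INPUT WT, and Gsdmd 13 and 74 in KO and 13 and 42 in WT. Casp1, Casp4 and Nlrp3 had 0 to 15 reads in each INPUT library.

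Zbp1 was read in KO liver and not in WT liver. INPUT held 7 and 12 reads in KO and 0 and 0 in WT, and the J2 libraries 3 and 9 reads in KO and 0 and 0 in WT. Set against a floor of 3 counts over the 2 WT libraries together, Zbp1 was 4.37-fold higher in INPUT KO and 2.88-fold higher in J2 KO. These ratios take the KO reads as exact, leave out the spread between KO libraries and are not lower bounds. It did not pass the filter, and without the filter INPUT gave an edgeR adjusted p of 0.41. Beside this, monocyte markers summed to 1558 to 1792 CPM in INPUT KO and 848 to 940 CPM in WT, macrophage markers to 574 to 626 CPM in KO and 233 to 294 CPM in WT, and hepatocyte markers to 20270 to 21330 CPM in KO and 10230 to 13700 CPM in WT. Their part in the INPUT values was not tested.

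**Figure D4:**
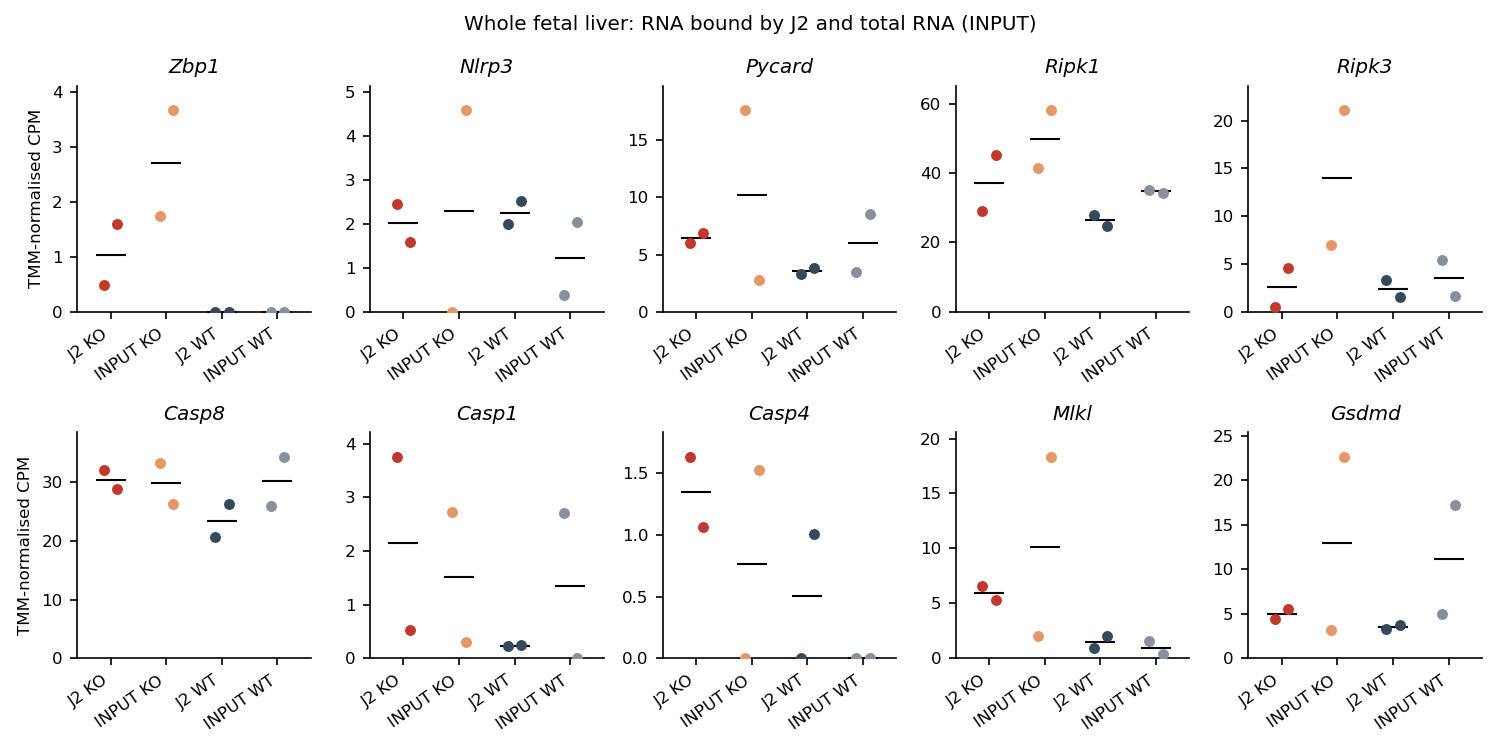
Levels of the 10 genes in whole fetal liver, in TMM-normalised CPM, for RNA bound by J2 and for INPUT, with one point per library (2 per group) and a line at the mean. Zbp1 is at 0 in all 4 WT libraries and above 0 in all 4 KO libraries.

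The pull-down with J2 was read against INPUT in each genotype, to ask which RNAs are bound by the antibody. Of the 8 genes tested, 0 were called in either direction, in KO (background 30.4% of genes) or in WT (background 23.9%), and 0 were called for a difference in enrichment between KO and WT, where edgeR called 0% of genes, with 1340 genes at an unadjusted p under 0.05, DESeq2 76 genes, and edgeR 10 genes with the liver as a block. The main fit did not use the pairing of J2 and INPUT by liver. With the liver as a block, the median log2 fold change of the tested members was -0.14 in KO, against -0.54 in the main fit. In WT it was -0.42, against -0.47. Neither Ripk1 nor Casp8 was called with that block. Ripk1 had 29.1 and 45.2 CPM in J2 KO against 41.4 and 58.1 CPM in INPUT KO (log2 fold change -0.42, SE 0.36, edgeR adjusted p = 0.41), and 28.0 and 24.7 CPM in J2 WT against 35.2 and 34.3 CPM in INPUT WT (-0.40, SE 0.37, edgeR adjusted p = 0.474). Casp8 had 32.02 and 28.79 CPM in J2 KO against 33.2 and 26.3 CPM in INPUT KO (0.03, SE 0.39, edgeR adjusted p = 0.964), and 20.7 and 26.2 CPM in J2 WT against 25.9 and 34.3 CPM in INPUT WT (-0.36, SE 0.40, edgeR adjusted p = 0.547). The difference between the enrichments, KO minus WT, was -0.02 (SE 0.52) for Ripk1 and 0.39 (SE 0.56) for Casp8, each smaller than its error. For the other genes an enrichment was not detectable at this depth. Of the other genes of initiation and control, 8 of 39 tested were higher and 7 lower in J2 than in INPUT in KO, and 6 and 7 in WT. Of 27 tested inflammasome and pyroptosis genes, 5 were higher and 1 lower in KO, and 3 and 0 in WT. Over all genes tested, 15.3% were higher and 15.1% lower in KO, and 13.2% and 10.7% in WT. Among those followed, Xiap was enriched by J2 in both genotypes, with a log2 fold change of 3.01 in KO (edgeR adjusted p = 1.19e-05) and 2.52 in WT (edgeR adjusted p = 5.15e-05). Tradd and Serpinb1a were called lower in J2 in KO alone (edgeR adjusted p = 0.0114 and 0.0396), and Traf2 higher in WT alone (edgeR adjusted p = 0.00358). These calls rest on sparse genes, with means of 1 CPM for Tradd and 6.05 CPM for Serpinb1a in J2 KO and 5.01 CPM for Traf2 in INPUT WT.

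Among the J2 libraries themselves 8 of the 10 genes were higher in both KO libraries than in both WT libraries, against 26.6% of the genes tested. The exceptions were Ripk3 and Nlrp3. Of the 8, Zbp1 and Casp4 did not pass the filter on low counts and are not among the genes tested. Casp4 had 10 and 6 reads in J2 KO and 0 and 4 in J2 WT. Casp1 had 23 and 3 reads in J2 KO and 1 and 1 in J2 WT. Mlkl had 40 and 30 reads (6.54 and 5.30 CPM) in J2 KO and 4 and 8 reads (0.888 and 2.02 CPM) in J2 WT. Pycard had 37 and 39 reads (6.05 and 6.89 CPM) in J2 KO and 15 and 15 reads (3.33 and 3.78 CPM) in J2 WT. These are levels in the pull-down, which carry the level in the liver with them, and the contrast of J2 KO with J2 WT was not tested.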

How the data were processed

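The members and gene lists were chosen with earlier results of these data known. All deposited values are counts: the authors deposited raw counts of aligned reads per gene (bulk, INPUT and J2), counts of CUT&RUN reads in windows of 3 kb at transcript starts, and counts per gene and cell, per the labels. The submitters' processing notes name, with no role given, Seurat 3.0, edgeR, bedtools, Picard 2.9.0, Bowtie2 2.2.9, STAR 2.5.3a and build GRCm38.p5; strand setting and handling of multi-mapped reads are not given in the sources used here. The labels' protocol splits each liver into INPUT and J2, so these are paired by liver. Whether same-numbered KO and WT samples share more than a number is not said in the labels. The correlation of same-numbered deviations was 0.012 in KO and 0.128 in WT for J2 and INPUT.

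The tests used edgeR 4.0.16 (R 4.3.3; filterByExpr, TMM, quasi-likelihood F test, Benjamini-Hochberg over all features, called at an adjusted p under 0.05), after a check on simulated counts; DESeq2 1.42.0 was an alternative. The 8 liver libraries shared 1 fit of 4 group means. For H3K4me3, 1 window per gene was taken, that with the highest mean count. Cells passed with a minimum of 500 counts, of which less than 20% mitochondrial, and were summed per library and tested as above; doublets were not removed, and whether the authors had removed them is not stated. Marker classes need counts of at least 2 markers, and KO and WT were set side by side in classes with at least 50 cells in each library. Thinning drew 1000 counts per cell and left out shallower cells. The rule for named genes took all 10 members, up to 3 genes per list and direction with the largest bulk change among those called, and 3 like genes for each of the 3 members with the largest change called in bulk. Other settings tried were RLE or no scaling, no filter on low counts, DESeq2, each replicate left out, replicate or liver as a block, marked or all distinct windows, INPUT alone, all deposited cells and thinned cells. Log2 fold changes in the liver contrasts are printed for genes with at least 50 reads in each of the 8 libraries, and in INPUT also for tested genes whose groups did not overlap; this choice followed the data.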

Additional observations from a re-analysis of the deposited data

Results flagged for a closer look

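Casp1 lay on opposite sides in the RNA assays of LSK cells. Its log2 fold change of KO over WT was 0.43 in bulk RNA, with each of the 3 KO libraries above each of the 3 WT libraries, and -0.41 in the single-cell sums, with both libraries labelled KO below both labelled WT. The difference between the assays was not tested, neither value passed its own test with edgeR, and the single-cell groups differ in sex as well as genotype.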

How the results depend on the processing

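Of the member values recomputed under other settings, 367 kept their direction and their side of the threshold, 12 lost the call, 11 gained one and 27 changed sign; the cause was not tested. In bulk RNA 6 or 7 of the 10 genes rose under every setting run, and 0 fell with RLE, against 0 to 1 without 1 library. Without 1 library Gsdmd was between -0.084 and 0.036 and Ripk3 between -0.16 and 0.052. With library size alone the bulk calls were 2463 higher and 4143 lower, that is 37.3% higher against 48.9%.

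In H3K4me3, 2 genes rose, against 1 with library size alone, DESeq2 or marked windows and 7 with the replicate block. The labels do not say whether the replicate numbers pair KO with WT samples, and same-numbered deviations correlated at 0.302. Nlrp3 was -0.068 and Pycard -0.097 with library size alone, and in marked windows Ripk1 was -0.012, Nlrp3 -0.13 and Pycard -0.16. Called windows numbered 4024, against 802 with DESeq2, 20840 with the replicate block, 660 in marked windows, 12979 over all distinct windows and 1078 to 3855 without 1 library. Of the calls 41% were higher, against 50.1% with RLE, 28.3% with library size alone and 94.6% with DESeq2.

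In INPUT, Casp8 was 0.27 with library size alone and -0.25 to 0.21 without 1 library. Called genes numbered 173, against 329 with library size alone, 798 without a filter, 826 with DESeq2, 25 with INPUT fitted alone, 20 with that and the replicate block, and 29 to 451 without 1 library. For J2 over INPUT, Casp8 in KO was -0.10 to 0.27 without 1 library, and in WT Ripk1 was 0.025 and Casp8 0.060 with library size alone. Without 1 library 2744 to 3443 genes were called in KO (4462 with all) and 1855 to 3600 in WT (3503 with all). For KO minus WT, Ripk1 was 0.029 with RLE, 0.033 without a filter and 0.029 with DESeq2, and -0.35 to 0.29 without 1 library. Called genes numbered 0, against 3 with library size alone, 103 without a filter, 76 with DESeq2, 10 with the liver as a block and 0 to 9 without 1 library.

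In the single-cell sums Ripk3 was 0.018 with library size alone and -0.31 to 0.23 without 1 library, and Gsdmd -0.19 to 0.034. Called genes numbered 1, against 11 without a filter, 310 with DESeq2, 117 with the replicate block and 0 without any 1 library. Same-numbered KO and WT samples had correlated deviations of 0.044 to 0.23 in bulk, 0.302 in H3K4me3, -0.013 in INPUT and 0.26 in single cells. With 2 libraries per group outside bulk RNA, and under 100 reads for most members in liver, small differences could not be seen.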
